A study of Mus musculus with 4 samples.

Results

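The genes of the proteasome were taken as every gene whose symbol reads Psm, a letter from a to g and a number. The rule found 48 of the 38087 genes listed, and 46 of the 14470 genes that varied between libraries and could be tested. They comprise 7 alpha and 7 constitutive beta subunits of the core, 5 inducible or tissue-specific core subunits, 6 ATPases and 11 non-ATPases of the regulatory cap, 5 activators and inhibitors, and 7 assembly chaperones. Psma8, the alpha subunit of spermatogenic cells, and Psmb11, the beta subunit of the thymic cortex, did not vary between the 4 libraries and so could not enter the test.

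The proteasome is the main protease of the cytosol and nucleus and degrades proteins that carry ubiquitin chains. Alpha rings gate a barrel of beta rings, whose inner faces hold the active sites, and a cap with an ATPase ring unfolds substrates and threads them in. After interferon gamma, cells including endothelium exchange the active beta subunits for induced ones, and the resulting immunoproteasome makes peptides for MHC class I.

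RNA sequencing profiled endothelial cells sorted as eGFP-positive and CD31-positive from the ventricles of healthy C57BL/6 mice, in 2 control and 2 Gata4 KO libraries. The labels give all 4 libraries the same sequencing run. The lines used carried a Tie2-CreERT2 transgene, in which a Tie2 promoter and enhancer drive a tamoxifen-activated Cre, and the R26eGFP reporter, and loxP-targeted Gata4 was recombined in the group labelled Gata4 KO. The labels do not say whether the controls carried loxP-targeted Gata4. Mice ate tamoxifen chow (40 mg/kg body weight) from 4 weeks of age until cell isolation at 8 weeks. The Tie2 promoter is also active in some blood cells. The gate, and not the transgene alone, defines the cells, and whether it excluded such blood cells was not tested. In the descriptions, more than one number stands for each control library and a single number for each Gata4 KO library, although the title of control 2 also gives a single number. If the descriptions hold, pooling of animals may have followed the groups and cannot be told apart from genotype. Since no label states that each library had its own animals, a p-value here measures nothing but the spread between libraries, part or all of which may be technical.

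Each value is a log2 value from which the gene's own median over the 4 libraries has been subtracted, so 0 is that median and levels of different genes cannot be compared. A log2 difference is the Gata4 KO mean minus the control mean, and its standard error (SE) and adjusted p come from limma over all 14470 genes with Benjamini-Hochberg adjustment. With 2 libraries against 2, the exact permutation test of a single gene cannot give a two-sided p below 0.33.

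Gata4 itself had values of 0.48 and 0.14 in the controls and -0.14 and -0.46 in Gata4 KO, a log2 difference of -0.61 (SE 0.26, adjusted p = 0.663 by limma, exact permutation p = 0.33). Of 10 endothelial markers, 5 were above both controls (50%, beside 15.7% of all tested genes) and 1 below (10%, beside 17.3%). Their log2 differences ran from -0.85 in Vwf to 1.03 in Cldn5, and Pecam1, which encodes CD31, had 0.066. Of the fibroblast markers 10 of 10 tested, and of the macrophage markers 8 of 9, were below both controls in both Gata4 KO libraries, with median log2 differences of -1.33 and -1.27, and for these cells a smaller number and less RNA per cell cannot be told apart. Cardiomyocyte markers were below both controls in 5 of 8 genes, with a median of -0.39, and over all tested genes the share below both controls was 17.3%. Mean values per library were 1.20 and 0.38 in the controls and -0.40 and -0.87 in Gata4 KO for fibroblast markers, and 0.70, 0.34, -0.73 and -0.35 in the same order for macrophage markers. Xist, the transcript of the inactive X chromosome, had values of -2.76 in each control, its minimum, and of 2.76 and 3.71 in Gata4 KO. Ddx3y, Eif2s3y, Uty and Kdm5d on the Y chromosome exceeded their minimum in both controls and in neither Gata4 KO library. Sex and genotype therefore cannot be told apart.

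No difference in a proteasome transcript between the groups passed the test. The count at an adjusted p of 0.05 in limma was 0 of 46, and 0 of all 14470 genes (0%). Over all genes it was 27 with a mean trend, 7 with libraries centred on their medians and 51 without tied genes, and no proteasome gene was among them. At an unadjusted p under 0.05, 1 of the 46 was higher in Gata4 KO and 0 were lower, beside 399 genes higher (2.76%) and 776 lower (5.36%) among all tested. The gene concerned was Psmd10, a chaperone of cap assembly, which was also the only proteasome gene with a difference of at least 1.5-fold. Across all genes 6.36% were at least 1.5-fold higher and 9.9% at least 1.5-fold lower. The log2 differences of the 46 genes ran from -0.49 in Psmg1 to 0.78 in Psmd10, and their median size without sign was 0.17, beside 0.24 over all tested genes. The 95% interval of the difference lay within a 2-fold change either way in 32 of the 46 genes, beside 52.0% of all tested genes. For the other 14 genes, a 2-fold difference in one direction lay inside the interval.

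The direction was mixed. In 13 of 46 genes (28.3%) both Gata4 KO libraries were above both controls, beside 15.7% of all tested genes. In 5 genes (10.9%) both were below both controls, beside 17.3%, and in 28 genes the groups overlapped. The mean was higher in Gata4 KO for 28 genes and lower for 18, with a median log2 difference of 0.082, beside -0.0088 over all genes. The sign of the median rested on Gata4 KO 1. Without Gata4 KO 1 the median was -0.081, with 15 genes above and 19 below, and without Gata4 KO 2 it was 0.19, with 28 above and 6 below. Without control 1 the median was 0.033, with 21 above and 12 below, and without control 2 it was 0.069, with 18 and 9. Leaving out a library can only add to such counts.

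Without sign, the median gap over the 46 genes was 0.30 between the Gata4 KO libraries and 0.26 between the controls. The median difference between the groups was 0.17. Over all tested genes these medians were 0.25, 0.35 and 0.24 in the same order. A gap between single libraries tends to exceed a difference between means of 2 libraries, so the measures are not alike. Gata4 KO 1 had the highest value of the 4 libraries in 25 of the 46 genes. Gata4 KO 2 had the lowest in 17 and control 2 in 15. The same counts were not made over all genes. The medians over the 46 genes were -0.021 and -0.034 in the controls, 0.12 in Gata4 KO 1 and -0.10 in Gata4 KO 2. By these medians the controls lay between the Gata4 KO libraries, which was not the usual order of single genes. The larger gap within a group exceeded the difference between groups in 36 of the 46 genes (78.3%, beside 78.1% of all genes).

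**Figure D1:**
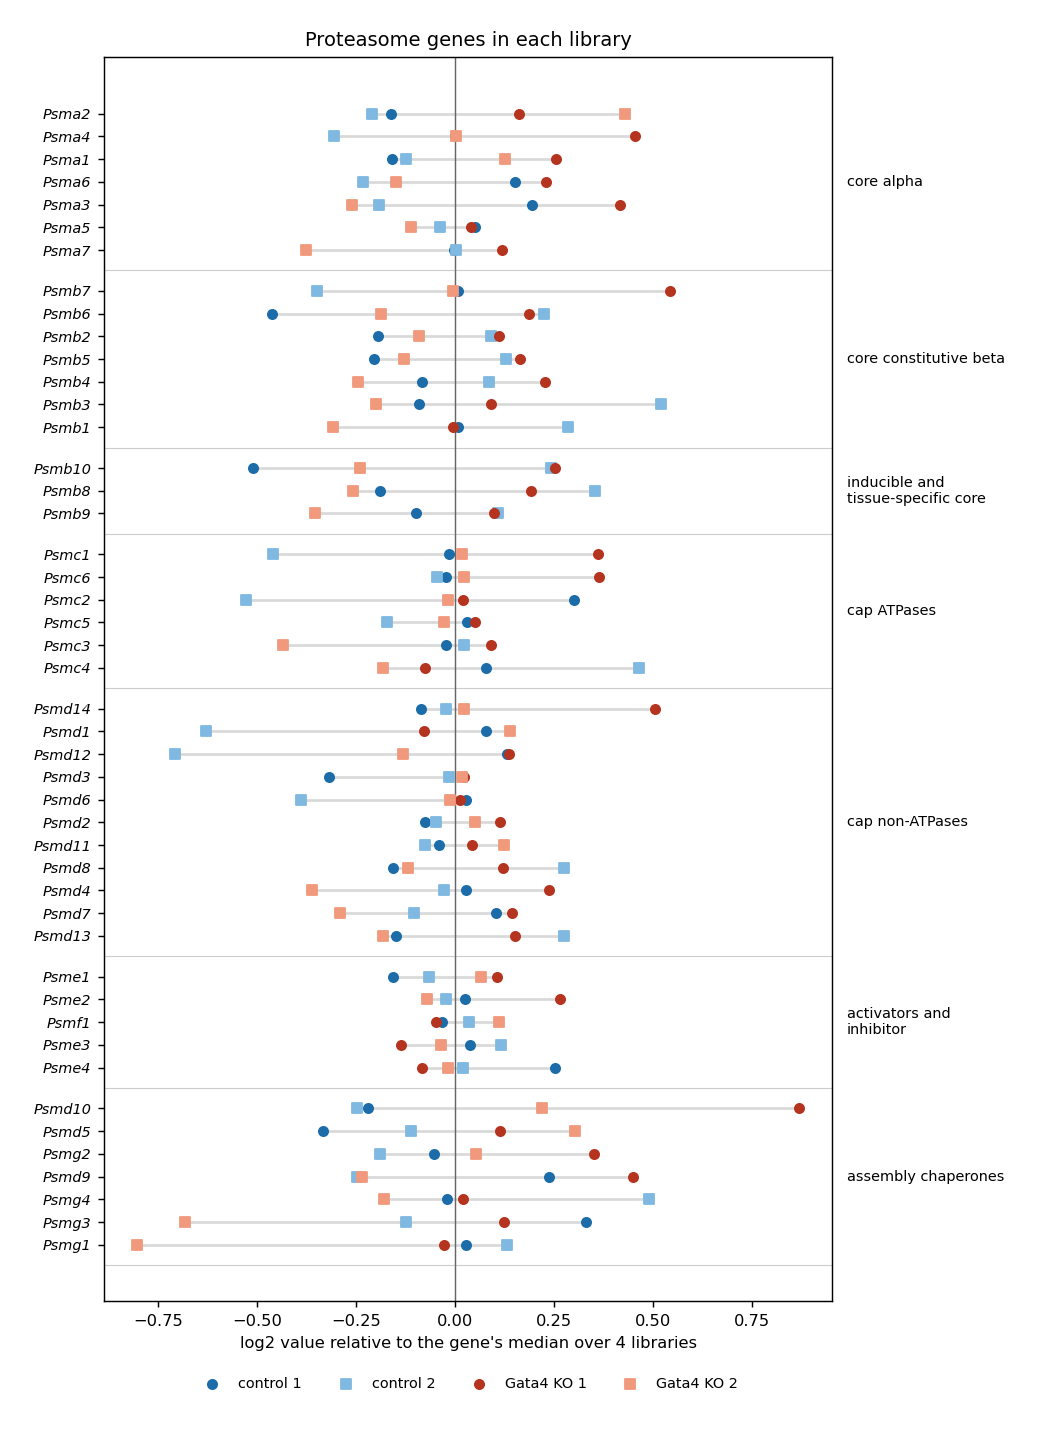
Log2 value relative to the gene's median for the tested proteasome genes in each of the 4 libraries, by subunit class. Medians over the 46 genes were -0.021 and -0.034 in the controls, 0.12 in Gata4 KO 1 and -0.10 in Gata4 KO 2.

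**Figure D2:**
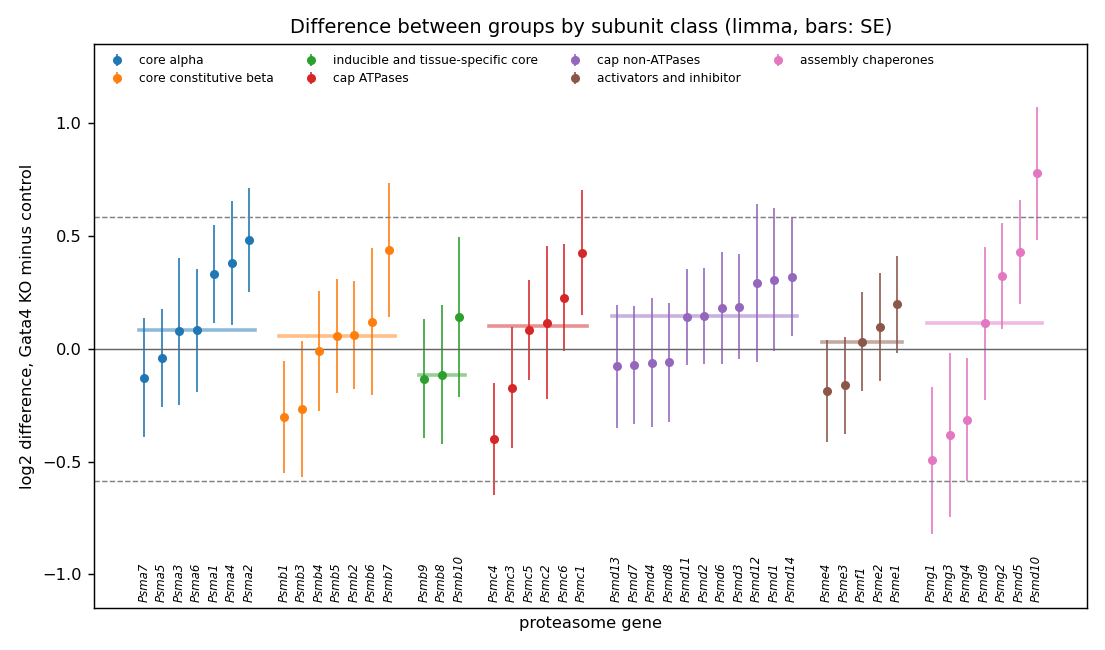
Log2 difference of each of the 46 tested proteasome genes, Gata4 KO minus control, with its SE from limma (vertical bars, n = 2 libraries a group), class medians (horizontal bars) and 1.5-fold either way (dashed lines). Psmd10 at 0.78 and Psmg1 at -0.49 are the extremes and no gene passed the adjusted threshold.

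The assembly chaperones spread most, from the highest to the lowest difference of all 46 genes. Psmg1 to Psmg4 act as a pair of dimers that build the alpha ring, while Psmd5, Psmd9 and Psmd10 hold parts of the ATPase ring until the cap is complete. Of the 7 genes, 3 were above both controls (42.9%, beside 15.7% of all tested genes) and 1 below both (14.3%, beside 17.3%). In 3 genes the groups overlapped, and the median log2 difference of the class was 0.11.

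Psmd10 encodes gankyrin, an ankyrin-repeat chaperone that binds the ATPase Psmc4 and is also known to bind RB and MDM2. The gene (ENSMUSG00000031429) is protein-coding and lies on the minus strand of the X chromosome, at 140948429 to 140956728 on mm10. Its values were -0.22 and -0.25 in the controls and 0.87 and 0.22 in Gata4 KO. The groups did not overlap, and the Gata4 KO libraries lay farther apart from each other than the nearer of them lay from the controls. The log2 difference was 0.78 (SE 0.30, 95% interval 0.017 to 1.54, 1.71-fold), with an unadjusted limma p of 0.0466, an adjusted p of 0.60 and an exact permutation p of 0.33. It ranged from 0.45 without Gata4 KO 1 to 1.10 without Gata4 KO 2. Psmc4, its binding partner, had a log2 difference of -0.40, with both Gata4 KO libraries below both controls.

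The promoter of Psmd10, the gene with the largest difference, is shown from RefSeq (GRCm38.p6, chrX:140956662-140956961, minus strand), 250 bases before to 50 after the start, with capitals marking CCAAT on either strand, the letters bound by NF-Y:
Psmd10: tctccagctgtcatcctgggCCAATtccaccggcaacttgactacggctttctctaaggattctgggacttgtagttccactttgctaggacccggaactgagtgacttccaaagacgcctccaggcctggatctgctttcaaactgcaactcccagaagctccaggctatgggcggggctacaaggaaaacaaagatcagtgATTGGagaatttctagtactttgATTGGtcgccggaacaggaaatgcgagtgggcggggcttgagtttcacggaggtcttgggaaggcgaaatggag
The window held 3 matches, 1 forward and the others as ATTGG. A match on either strand was found in 13 of the 39 tested proteasome genes with a window in the table, and in 31.0% of their windows against 37.4% of all promoter windows.

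Psmd10 is the only proteasome gene of the set on the X chromosome, and sex and genotype cannot be told apart here. Over the 437 X-linked genes tested, 18.3% had both Gata4 KO libraries above both controls and the median log2 difference was 0.015. Of the other genes in the ubiquitin-proteasome pathway, Uba1, the main ubiquitin-activating enzyme, and Ubqln2, a shuttle that carries ubiquitinated proteins to the proteasome, are also X-linked. Their log2 differences were 0.24 and 0.38, and in both the Gata4 KO libraries were above both controls, without passing the test (adjusted p = 0.858 and 0.814 by limma).

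Psmg1, which pairs with Psmg2, had values of 0.028 and 0.13 in the controls and -0.028 and -0.80 in Gata4 KO. Gata4 KO 2 alone lay far below the rest. The log2 difference was -0.49 (SE 0.33, adjusted p = 0.842 by limma), and -0.11 without that library. Its partner Psmg2 lay on the other side, at 0.32 and above both controls. Psmg3 and Psmg4, the second dimer, had log2 differences of -0.38 and -0.31 with overlapping groups. Psmg3 had its lowest value, -0.68, in Gata4 KO 2 as well. Among the ATPase chaperones, Psmd5 had a log2 difference of 0.43 with values of -0.33 and -0.11 against 0.11 and 0.30. Psmd9 had 0.11, and its Gata4 KO libraries lay 0.68 apart.

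The alpha ring had 3 of 7 genes above both controls (42.9%, beside 15.7% of all tested genes) and none below (beside 17.3%). Its median log2 difference was 0.081. Psma2 was the highest, with values of -0.16 and -0.21 in the controls and 0.16 and 0.43 in Gata4 KO. The groups did not overlap, and each spanned less than the log2 difference of 0.48 (SE 0.23, 1.40-fold, adjusted p = 0.724 by limma). Psma4 and Psma1 followed at 0.38 and 0.33, also above both controls. In Psma4 the groups were nearly tied at their edge, with -0.00087 in control 1 and 0.00087 in Gata4 KO 2. Psma6, Psma3 and Psma5 had log2 differences of 0.081, 0.077 and -0.041, with overlapping groups. Psma7 was the lowest, at -0.0031 and 0.0031 in the controls and 0.12 and -0.38 in Gata4 KO, a log2 difference of -0.13 (SE 0.26, adjusted p = 0.940 by limma). Its controls were nearly equal and the Gata4 KO libraries lay on either side of them.

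The constitutive beta ring had no gene above both controls (beside 15.7% of all tested genes) and 1 of 7 below (14.3%, beside 17.3%). Its median log2 difference was 0.056. Psmb7, which carries the trypsin-like site, had values of 0.0063 and -0.35 in the controls and 0.54 and -0.0063 in Gata4 KO. It was the highest of the ring at 0.44 (SE 0.30, adjusted p = 0.842 by limma), but its lower Gata4 KO value lay between the controls. Psmb1, a structural subunit without an active site, was the lowest. It had 0.0058 and 0.28 in the controls and -0.0058 and -0.31 in Gata4 KO, a log2 difference of -0.30 (SE 0.25, adjusted p = 0.848 by limma). The other structural subunits Psmb2, Psmb4 and Psmb3 had log2 differences of 0.062, -0.0093 and -0.27, and that of Psmb4 turned to 0.0064 when libraries were centred on their medians.

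The active subunits of the immunoproteasome are Psmb8, Psmb9 and Psmb10, which take the places of Psmb5 (chymotrypsin-like), Psmb6 (caspase-like) and Psmb7. None of the 3 induced genes separated the groups. Psmb8 had values of -0.19 and 0.35 in the controls and 0.19 and -0.26 in Gata4 KO. Psmb9 had -0.098 and 0.11 against 0.098 and -0.35. Psmb10 had -0.51 and 0.24 against 0.25 and -0.24. All 3 were high in control 2 and Gata4 KO 1 and low in control 1 and Gata4 KO 2, so their split into high and low libraries crossed the groups. Their log2 differences were -0.11 (SE 0.31), -0.13 (SE 0.26) and 0.14 (SE 0.36), with adjusted p-values of 0.960, 0.939 and 0.955 by limma.

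Among the subunits they replace, Psmb5 and Psmb6 had the same high and low libraries. Psmb5 had -0.20 and 0.13 in the controls and 0.16 and -0.13 in Gata4 KO. Psmb6 had -0.46 and 0.22 against 0.19 and -0.19. In both, control 1 and Gata4 KO 2 were low, and control 2 and Gata4 KO 1 were high, a split that Psmb7 did not share. The structural subunits Psmb2, Psmb3 and Psmb4 also had it, as did 13 of the 46 genes in all, beside 10.9% of all tested genes. The log2 differences were 0.056 (SE 0.25) for Psmb5 and 0.12 (SE 0.33) for Psmb6.

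Subtracting the replaced from the induced gene within each library gives the shift of one transcript against the other, relative to each gene's own median. It gives no ratio of their levels, and exchange of the proteins was not measured. For Psmb8 minus Psmb5 the shift was 0.014 and 0.22 in the controls and 0.027 and -0.13 in Gata4 KO. For Psmb9 minus Psmb6 it was 0.36 and -0.12 against -0.089 and -0.17. For Psmb10 minus Psmb7 it was -0.52 and 0.59 against -0.29 and -0.23. The group difference was -0.17, -0.25 and -0.30 in that order, lower in Gata4 KO each time. Each was smaller than the gap between the controls, which was 0.21, 0.48 and 1.11, and the groups overlapped in all 3.

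**Figure D3:**
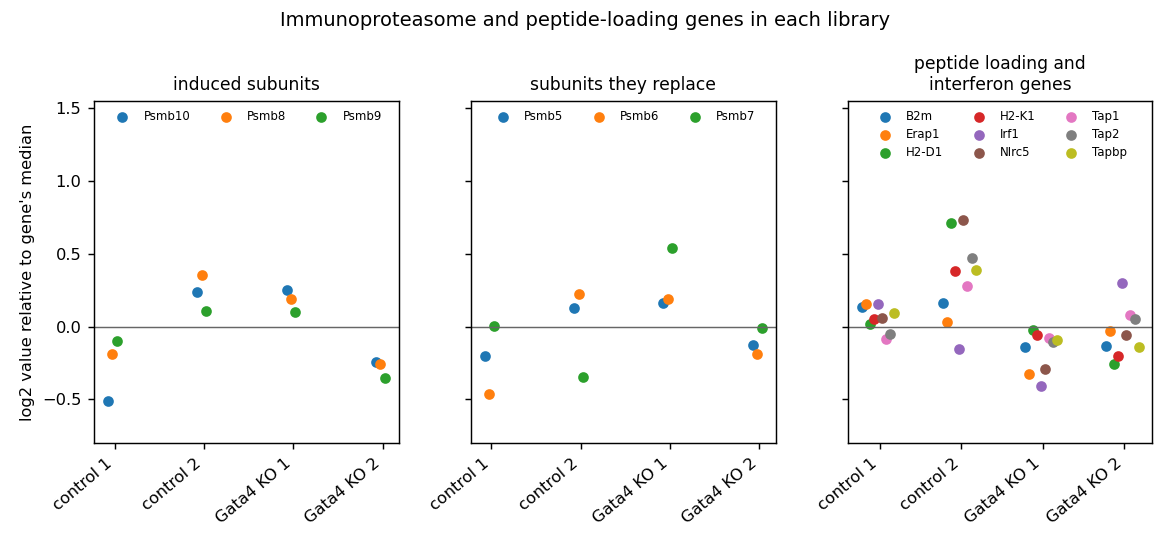
Log2 value relative to the gene's median in each library for the induced subunits, the subunits they replace and 9 of the 10 listed genes of peptide loading and interferon response. Induced subunits were high in control 2 and Gata4 KO 1, whereas 6 of the peptide-loading and interferon genes were below both controls in both Gata4 KO libraries.

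Genes that act after the proteasome on the route to MHC class I, and factors that induce them, were mostly lower in Gata4 KO by their means, and none passed the test. Of 10 such genes none was above both controls (15.7% of all genes), 6 were below both (17.3% of all genes) and 4 overlapped, with a median log2 difference of -0.28. The difference from the induced subunits was not tested. Nlrc5, the transactivator of MHC class I genes, was the lowest at -0.57. The heavy chains H2-D1 and H2-K1 had -0.51 and -0.35, their partner B2m -0.28, and the loading factor Tapbp -0.36. The peptide transporters Tap1 and Tap2 had -0.094 and -0.24 with overlapping groups, and the interferon factor Irf1 had -0.056. Macrophages express the same genes strongly. Of 9 macrophage markers tested, 8 were below both controls (17.3% of all genes), and the median log2 difference of the 9 was -1.27. The exception was Cd68, at 0.27 with overlapping groups. Ptprc, expressed by all leukocytes, had values of 0.32 and -0.27 in the controls and 0.27 and -0.37 in Gata4 KO (log2 difference -0.074). The part of these cells in the values was not tested.

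Psmb9 and Tap1 start head to head in the MHC region of chromosome 17, and the annotated genes overlap at their starts. Their log2 differences were -0.13 and -0.094, and whether reads were assigned by strand is not given in the sources used here, so reads from the overlap cannot be told apart. The overlap is that of GENCODE M21, in which Psmb9 begins at 34187764. The RefSeq window of Psmb9 is set on another start, reaches only to 34187580 and covers a small part of the overlap. It is shown on the Psmb9 strand (RefSeq, GRCm38.p6, chr17:34187281-34187580, minus strand), with capitals marking the CCAAT match, here as ATTGG:
Psmb9: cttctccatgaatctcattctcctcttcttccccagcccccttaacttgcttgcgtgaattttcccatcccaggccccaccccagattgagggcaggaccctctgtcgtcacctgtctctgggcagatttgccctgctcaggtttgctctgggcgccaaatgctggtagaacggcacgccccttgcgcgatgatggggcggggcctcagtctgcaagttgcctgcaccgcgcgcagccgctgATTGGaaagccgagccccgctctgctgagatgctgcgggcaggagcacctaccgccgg
Neither GAAANNGAA, the core of the interferon-stimulated response element, nor TTCNNNGAA, the gamma-interferon activation site known as GAS, was among the letters of this window. GAAANNGAA on either strand was found in 7 of the 39 genes, in 16.7% of their windows against 8.56% of all windows. TTCNNNGAA was found in Psmb8, Psmd2 and Psmg1, in 7.14% of windows against 8.30%.

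In the ATPase ring of the cap, 2 of 6 genes were above both controls (33.3%, beside 15.7% of all tested genes). Below both was 1 gene (16.7%, beside 17.3%) and 3 overlapped, with a median log2 difference of 0.099. Psmc1 had values of -0.016 and -0.46 in the controls and 0.36 and 0.016 in Gata4 KO. The groups touched without overlapping, and the log2 difference was 0.43 (SE 0.28, adjusted p = 0.842 by limma). Psmc4 was the lowest, at 0.077 and 0.46 against -0.077 and -0.18. Its log2 difference was -0.40 (SE 0.25, adjusted p = 0.842 by limma), and it was -0.21 without control 2. Psmc1 and Psmc4, which sit in the same ring in equal number, thus had opposite signs. Psmc6, Psmc2, Psmc5 and Psmc3 had log2 differences of 0.23, 0.12, 0.083 and -0.17.

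The non-ATPases of the cap include subunits that recognise ubiquitin or remove it, beside scaffold and lid subunits. Of these 11 genes 4 were above both controls (36.4%, beside 15.7% of all tested genes) and none below (beside 17.3%). Their median log2 difference was 0.14, the highest of the classes. Psmd14, the deubiquitinase that cuts chains from bound substrates, had values of -0.087 and -0.023 in the controls and 0.50 and 0.023 in Gata4 KO. Its log2 difference was 0.32 (SE 0.26, adjusted p = 0.848 by limma) and rested on Gata4 KO 1. Psmd7, the partner of Psmd14, had -0.073. Psmd4, a ubiquitin receptor, had -0.062, with Gata4 KO libraries at 0.24 and -0.36 on either side of the controls.

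The large scaffold subunits Psmd1 and Psmd2 had log2 differences of 0.31 and 0.14. Psmd1 overlapped between groups, with 0.079 and -0.63 in the controls and -0.079 and 0.14 in Gata4 KO, and Psmd2 was above both controls with a spread of at most 0.065 within a group. The lid subunits Psmd12, Psmd3, Psmd6, Psmd11 and Psmd8 had 0.29, 0.19, 0.18, 0.14 and -0.059. Psmd13 was the lowest of the class, with values of -0.15 and 0.27 in the controls and 0.15 and -0.18 in Gata4 KO, a log2 difference of -0.078 (SE 0.27, adjusted p = 0.972 by limma). Its start overlaps that of Sirt3 on the other strand, and the log2 difference of Sirt3 was -0.43.

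Caps other than the ATPase cap showed opposite signs. Psme1 and Psme2 form an interferon-induced ring that opens the core to peptides. Psme1 had values of -0.16 and -0.065 in the controls and 0.11 and 0.065 in Gata4 KO, and its log2 difference of 0.20 (SE 0.21, adjusted p = 0.883 by limma) was the highest of the class. Psme2 had 0.024 and -0.024 against 0.26 and -0.071, a log2 difference of 0.096 (SE 0.24, adjusted p = 0.954 by limma). Psme1 thus separated the groups and its ring partner did not.

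Psme3 and Psme4 encode activators found mainly in the nucleus. Psme4 had 0.25 and 0.019 in the controls and -0.084 and -0.019 in Gata4 KO, a log2 difference of -0.19 (SE 0.23, adjusted p = 0.896 by limma). Psme3 had -0.16, and in both genes the Gata4 KO libraries were below both controls. Psmf1, which encodes a protein that inhibits the core in vitro, had 0.031.

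Cells raise proteasome genes together through Nfe2l1, a factor of the endoplasmic reticulum that Vcp helps to extract, Ngly1 deglycosylates and Ddi2 cuts before it enters the nucleus to bind antioxidant response elements. Nfe2l1 itself had a log2 difference of 0.024, and Nfe2l2, a related factor for the same element, 0.15. Vcp had 0.42 and lay above both controls, Ngly1 had -0.35 and lay below both, and Ddi2 had 0.12 with overlapping groups. Across the 28 other pathway genes tested, 10 were above both controls (35.7%, beside 15.7% of all genes), 2 below (7.14%, beside 17.3%) and 16 overlapped. The median log2 difference was 0.13, and none passed the test. Besides Vcp, genes above both controls included Pomp, the maturation factor of the core, at 0.29, and Akirin2, which brings proteasomes into the nucleus, at 0.37. Adrm1, a ubiquitin receptor of the cap, had 0.031 and the polyubiquitin gene Ubb had 0.11. Uchl5, a deubiquitinase of the cap, had 0.47 with overlapping groups.

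The core of that element, TGACNNNGC on either strand, was found in the promoter windows of 6 proteasome genes, in 14.3% of their windows against 12.4% of all promoter windows. These matches are shown because their letters are those of the element that Nfe2l1 binds, and binding at these sites was not tested. They are given with 16 bases on each side where the window allows, from RefSeq (GRCm38.p6). They lie at chr14:54618018-54618058 (minus strand) for Psmb5, chr11:70525332-70525372 for Psmb6, chr14:45329581-45329621 for Psmc6, chr11:107479278-107479305 for Psmd12, chr5:123228143-123228183 for Psmd9 and chr11:30771752-30771792 for Psme4, the last 5 on the plus strand. Capitals mark the match, which reads as its reverse complement where it is on the opposite strand:
Psmb5: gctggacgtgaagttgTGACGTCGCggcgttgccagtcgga
Psmb6: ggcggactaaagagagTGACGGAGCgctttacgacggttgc
Psmc6: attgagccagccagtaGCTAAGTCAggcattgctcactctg
Psmd12: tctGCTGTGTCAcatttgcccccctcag
Psmd9: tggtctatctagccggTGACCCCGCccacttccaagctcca
Psme4: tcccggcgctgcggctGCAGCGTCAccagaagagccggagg
The 6 genes had log2 differences of 0.056, 0.12, 0.23, 0.29, 0.11 and -0.19 in that order, with a median of 0.12, beside 0.081 in the 33 genes without the match. CCGGAAG, the site of ETS factors, was found in 14 of the 39 genes and in 35.7% of their windows against 8.86% of all windows. The median log2 difference was 0.098 with that match and 0.083 in the 25 genes without it.

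The gap between the Gata4 KO libraries was the most regular feature of the 46 genes. Gata4 KO 1 was above Gata4 KO 2 in 39 of them, with a median gap of 0.30, beside 6314 of 14470 and a median gap of 0 over all tested genes. Tied genes can have a gap of 0, and no proteasome gene was tied. Genes without ties gave 5754 of 11894 and a median gap of -0.017. Control 1 was above control 2 in 22 of the 46, beside 8535 of 14470, or 7454 of 11894 without ties. The gap was positive in 7 of 7 constitutive beta genes, 3 of 3 induced genes and 6 of 6 ATPases, but in 2 of 5 activators and inhibitors.

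The gap varied with transcript length. Proteasome transcripts in GENCODE M21 ran from 555 bases in Psmg4 to 6491 in Psme4, with a median of 1435. All 7 genes in which Gata4 KO 1 was below Gata4 KO 2 were among the 10 longest, at 2597 bases or more. In the 23 shorter genes the gap was positive in 23, with a median of 0.37, and in the 23 longer ones in 16, with a median of 0.24. Across the 46 genes the gap and log2 length had Pearson's r of -0.48 and Spearman's rho of -0.41, a description over genes that share the same libraries and are not independent. Over 10676 tested genes without ties and with a length, r was -0.29 and rho -0.32. Of these, genes up to 1435 bases had a median gap of 0.27 against -0.054 in longer ones. The gap was positive in 1116 of the 1558 shorter genes and in 4045 of the 9118 longer ones, so it was common among short genes in general. In the controls the relation had the opposite sign, with r of 0.27 for proteasome genes and 0.23 for all. The log2 difference between groups had r of 0.21 with length in proteasome genes and -0.0099 in all. The part of RNA quality or library preparation in this was not tested.

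**Figure D4:**
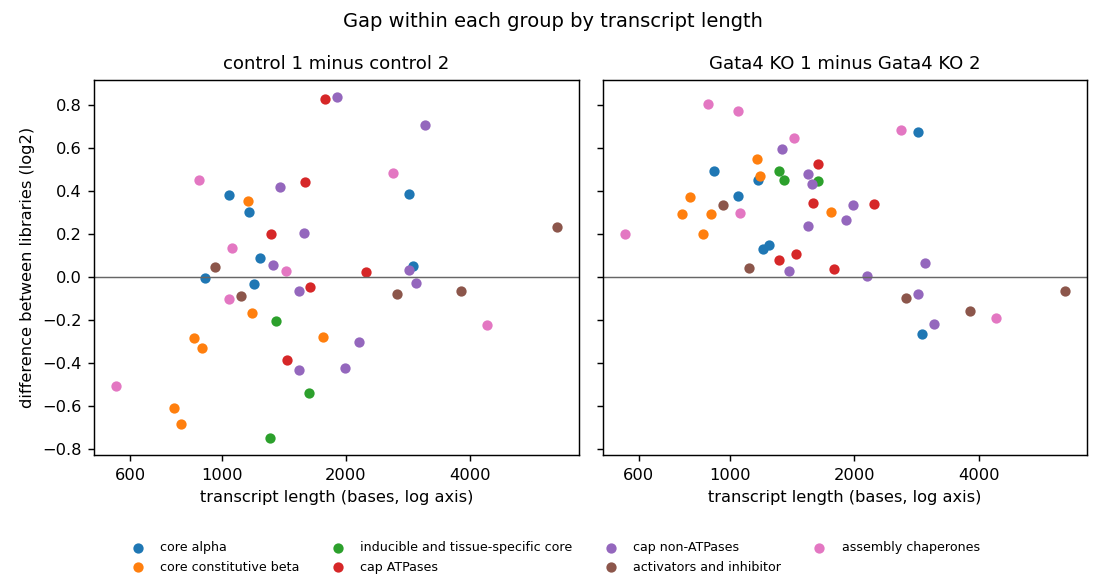
Difference between the 2 libraries of a group (log2) against transcript length (bases, log axis) for the 46 proteasome genes, controls on the left and Gata4 KO on the right. Gaps in Gata4 KO are above 0 in all 23 genes up to 1435 bases, and all 7 gaps below 0 belong to genes of 2597 bases or more. Among all tested genes without ties, 1116 of 1558 up to 1435 bases had a gap above 0.

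Several proteasome genes start close to a gene on the opposite strand. Within 1000 bases, 9 tested members had such a partner that was also tested, and 5 of the 9 pairs had log2 differences of the same sign. Psma2 had 0.48 and its partner Mrpl32 had 0.034. Psme2 had 0.096 and Rnf31, which encodes a ubiquitin ligase of the linear-chain complex, had 0.60. Psmc5 and Ftsj3 differed in sign, at 0.083 and -0.46. Values of genes with pseudogene copies are uncertain, since the sources used here do not give how shared reads were assigned. Of the pseudogenes listed, Psmb5-ps, Psmb6-ps and Psmb7-ps2 did not vary, and Psme2b-ps varied with a log2 difference of -0.029.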

How the data were processed

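Each of the deposited tables holds a log2 value for every library, a log2 fold change and a linear fold change per gene, and the authors divided genes between them by the sign of the difference. Per the file headers, this is an export of fold changes on Ensembl annotation, and processing notes by the submitters name mm10. Not given in the sources used here are the aligner, the quantification, any normalization and the unit that was logged, and depth is unknown. Every gene had a median of 0 over the 4 libraries (tolerance 1e-05), so levels are lost.

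The tables were joined (38087 genes), and 23617 genes with the same value in all libraries were left out. Of those tested, 1011 were tied at their lowest value in 2 libraries and 1565 in 3, with no proteasome gene among them. The groups were compared in R 4.3.3 with limma 3.58.1 (lmFit, eBayes without trend, two-sided; 2.96 prior and 2 residual degrees of freedom), adjusted by Benjamini-Hochberg over 14470 genes, with a threshold of 0.05. The test was also run on simulated data with planted changes, whose variances were set from the fit to these data. The share of planted changes recovered is not given here. Group differences equalled the authors' log2 fold changes to within 3e-07. Alternatives were a mean trend, centring of libraries, exclusion of tied genes and omission of each library.

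Members, classes and lists were chosen with earlier results of these data known. A pair of genes in the lists is counted but not reported here. Values in every library are given for the induced subunits and those they replace, Psme1 and Psme2, any member with an unadjusted p under 0.05, and the extremes of each class. Coordinates and lengths come from GENCODE M21. RefSeq windows of 300 bases were found for 39 of the 46 tested genes. A deposited fold is linear, and folds in the text are powers of the log2 difference.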

Additional observations from a re-analysis of the deposited data

How the results depend on the processing

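No paired analysis was possible because the labels number no replicates, and the numbers used here come from accession order. No proteasome gene passed the adjusted threshold in any of the 7 other settings, where the lowest adjusted p by limma was 0.301. Over all genes, 0 passed in limma as reported, 27 with a mean trend, 7 with libraries centred on their medians, 51 without tied genes and 0 when any library was left out. Centring moved differences by 0.016. Proteasome genes with an unadjusted p under 0.05 numbered 1 as reported, 0 with a mean trend and between 1 and 3 when a library was left out. They were Psmc2, Psmc4 and Psmd6 without control 1, Psmd3 without control 2, Psma2 and Psmg1 without Gata4 KO 1, and Psmd10 without Gata4 KO 2. Leaving out a library gave 6 to 19 genes below both controls, 15 to 28 above, and a median log2 difference from -0.081 to 0.19. Fewer libraries to clear make both counts larger by construction. Psmb4 reversed when libraries were centred (0.0064). The sign reversed without some library in 26 genes, with these ranges: Psma3 (-0.26 to 0.42), Psma5 (-0.12 to 0.035), Psma6 (-0.11 to 0.27), Psma7 (-0.38 to 0.12), Psmb10 (-0.23 to 0.52), Psmb2 (-0.082 to 0.20), Psmb3 (-0.57 to 0.036), Psmb4 (-0.25 to 0.23), Psmb5 (-0.11 to 0.22), Psmb6 (-0.22 to 0.46), Psmb8 (-0.39 to 0.16), Psmb9 (-0.36 to 0.093), Psmc2 (-0.30 to 0.53), Psmc3 (-0.43 to 0.091), Psmc5 (-0.018 to 0.18), Psmd1 (-0.048 to 0.66), Psmd12 (-0.13 to 0.71), Psmd13 (-0.29 to 0.13), Psmd4 (-0.36 to 0.24), Psmd6 (-0.028 to 0.39), Psmd7 (-0.29 to 0.14), Psmd8 (-0.28 to 0.16), Psmd9 (-0.23 to 0.45), Psme2 (-0.071 to 0.26), Psmf1 (-0.048 to 0.11), Psmg3 (-0.78 to 0.021). The cause was not tested. The other 20 genes kept their sign without any one library.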
